A study of Homo sapiens with 20 samples.

Results

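The aminoacyl-tRNA synthetases are described here across HCT116 cells given chaetocin, chetomin or a sulfide-depleted analog of either compound. Members were chosen by gene name alone: every symbol of the form letter plus ARS or ARS2, with EPRS, FARSA and FARSB. That gave 37 genes of the 15531 listed, 20 whose enzymes charge tRNAs in the cytosol and 17, with names ending in 2, whose enzymes work in mitochondria. All 37 were listed at both times in all 8 deposited tables. GARS and KARS were counted as cytosolic by name, although each gene encodes the enzyme for both compartments.

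HCT116 is a human colorectal carcinoma cell line. The cells received DMSO at 0.5% (the vehicle), or chaetocin, chetomin, MeS-chaetocin or MeS-chetomin at 500 nM, and were harvested at 5 h or at 12 h. These 10 groups held 2 libraries each, 20 in all, and the labels call the libraries of a group biological replicates. Chaetocin and chetomin are fungal epidithiodiketopiperazines, compounds with a disulfide bridge across a diketopiperazine ring, and the MeS compounds are described by the labels as their sulfide-depleted analogs. All groups are of 1 cell line at 1 concentration, so nothing here bears on dose.

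Each synthetase joins an amino acid to its tRNA, which makes the charged tRNA that the ribosome uses. Nuclear genes encode both sets of enzymes, and the mitochondrial set is imported to serve the translation of the respiratory chain subunits that the mitochondrial genome encodes. Many cytosolic synthetase genes are known targets of ATF4, the transcription factor that is translated more when the kinases of the integrated stress response phosphorylate eIF2 alpha. ATF4 binds, with a C/EBP partner, a composite site called CARE (C/EBP-ATF response element). Mitochondrial stress is also known to raise ATF4 activity in human cells.

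The values are normalized and scaled to transcript length, and their sum per library ran from 875371 to 1170802. Vehicle replicate 1 at 5 h stood apart, with 20.29% of its sum in its 10 highest genes against 9.42% to 17.29% in the other libraries, so 5 h results that move without it are given both ways. Of 8 colorectal epithelium markers, 6 were listed, and VIL1 and LGALS4 were not; the summed value of the 6, most of it KRT8 and KRT18, lay between 3256 and 5487 in all libraries. Single markers moved with treatment: CDX2 was called lower with both compounds at both times, at 2.40 to 3.64 in their libraries against 9.99 to 14.2 with vehicle, and at 12 h KRT19 was called lower with chaetocin and CDH1 with chetomin. Of 18 markers of other cell types, 9 were listed at 12 h and PTPRC, CD3E, LYZ, COL1A2 and DCN were not. Their summed value at 12 h was 8.94 to 14.9 with vehicle, 77.1 to 86.6 with chaetocin and 29.2 to 30.2 with chetomin, and HBA1 alone held 51.8 and 65.3 of the chaetocin sums. At 5 h the sums were 2.44 to 5.48 with vehicle, 22.7 to 32.9 with chaetocin and 14.2 to 17.0 with chetomin. The lower CDX2 and these higher sums stood beside every chaetocin and chetomin result below, and their part in those results was not tested. In bulk RNA, fewer cells and less RNA per cell cannot be told apart.

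The promoters of MARS2 and YARS2 are shown because these members were called lower with both compounds at both times. MARS2 encodes mitochondrial methionyl-tRNA synthetase and has 1 exon (chr2:197705369-197708387, plus strand), and YARS2 encodes mitochondrial tyrosyl-tRNA synthetase and has 5 (chr12:32727490-32755902, minus strand). The stretches are those before the start of each gene in RefSeq (GRCh38.p14), 250 bases at chr2:197705119-197705368 on the plus strand and 245 bases at chr12:32755903-32756147 on the minus strand. Capitals mark E-box letters CACGTG and NF-Y letters CCAAT (read as ATTGG on the other strand) in MARS2, and CARE letters TGATGNAA in YARS2.
MARS2: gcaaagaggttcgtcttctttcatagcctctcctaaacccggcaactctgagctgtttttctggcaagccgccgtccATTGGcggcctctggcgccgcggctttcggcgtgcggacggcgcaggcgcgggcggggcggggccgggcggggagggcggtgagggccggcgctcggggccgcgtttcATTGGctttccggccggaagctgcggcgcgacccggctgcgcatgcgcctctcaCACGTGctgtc
YARS2: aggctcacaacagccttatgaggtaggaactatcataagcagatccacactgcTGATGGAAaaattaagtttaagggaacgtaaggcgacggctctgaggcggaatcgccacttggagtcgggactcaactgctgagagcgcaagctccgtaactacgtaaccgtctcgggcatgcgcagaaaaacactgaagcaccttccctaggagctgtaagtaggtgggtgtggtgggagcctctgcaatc
No motif of the 3 was found in the promoters of both genes.

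Over the 300 bases around each RefSeq start, read on both strands, promoters matched for 30 of the 37 members. For each member 1 RefSeq start was used, so a match near another start of the gene would not be seen. CARE letters stood in 6 of 16 cytosolic promoters (37.5%) and in 1 of 14 mitochondrial ones (7.14%), against 3.62% of the 35116 promoters in the table. In all 6 cytosolic cases the match read TGATGCAA, a form that was picked out after the matches were seen and that 0.866% of all promoters hold. The 6 windows are shown because this match was found in no mitochondrial promoter; capitals mark the match, and each window is read on the strand that spells it.
AARS: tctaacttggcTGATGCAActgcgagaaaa
CARS: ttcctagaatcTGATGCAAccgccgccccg
IARS: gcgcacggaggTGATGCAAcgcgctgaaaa
MARS: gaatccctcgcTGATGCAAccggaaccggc
NARS: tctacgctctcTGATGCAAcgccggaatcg
TARS: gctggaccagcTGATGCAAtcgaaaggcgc
The windows lie, on GRCh38.p14, at chr16:70289675-70289704 (AARS, plus strand), chr11:3057407-3057436 (CARS, plus), chr9:92293692-92293721 (IARS, plus), chr12:57488053-57488082 (MARS, minus), chr18:57621804-57621833 (NARS, minus) and chr5:33440956-33440985 (TARS, minus). The E-box was found in 1 cytosolic promoter (6.25%) and in 3 mitochondrial ones (21.4%: CARS2, EARS2 and MARS2), against 7.26% of all promoters. The NF-Y letters stood in 43.8% of the cytosolic and 64.3% of the mitochondrial promoters, against 34.6% of all. None of the 3 motifs contains another. A match describes letters only.

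In vehicle cells the cytosolic synthetases were expressed well above the mitochondrial ones. On the length-scaled values, averaged over the 4 vehicle libraries, cytosolic levels ran from 35.4 (FARSB, a subunit of phenylalanyl-tRNA synthetase) to 195.8 (QARS, glutaminyl-tRNA synthetase), with a median of 107.6. Mitochondrial levels ran from 3.22 (WARS2, tryptophanyl) to 55.1 (IARS2, isoleucyl), with a median of 15.2. IARS2 was the only mitochondrial member among the 20 highest levels, and it stood next to DARS at 55.2 and CARS at 55.7, neighbours that the spread of the libraries does not separate.

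At 5 h the synthetase genes called lower with chaetocin were MARS2 and YARS2, both mitochondrial. An unadjusted limma p under 0.05 was found for 9 of 37 members, against 3908 of 14217 genes over all. MARS2 stood at 8.01 and 11.2 in the vehicle libraries and at 2.34 and 1.49 with chaetocin. YARS2 stood at 41.1 and 45.6 with vehicle and at 13.3 and 12.2 with chaetocin. Neither gene's groups overlapped. On the log2(value + 1) scale MARS2 fell by 1.86 (SE 0.30, limma adjusted p = 0.0138) and YARS2 fell by 1.69 (SE 0.18, adjusted p = 0.00546). Genes were called at an adjusted p under 0.05 over all genes tested, and 6.53% of all genes were called lower and 4.56% higher, against 2 of 37 members lower and 0 higher. The MARS2 call was lost without chaetocin replicate 2, and the YARS2 call held without any library of the comparison; without vehicle replicate 1, AARS was called lower as well.

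Chetomin at 5 h lowered the same pair and added HARS2 (histidyl) and AARS2 (alanyl), again all mitochondrial. MARS2 stood at 1.57 and 1.97 with chetomin and fell by 1.92 (SE 0.27, adjusted p = 0.00429). YARS2 stood at 10.4 and 11.9 and fell by 1.87 (SE 0.18, adjusted p = 0.00117). Both were below every vehicle library of that time. HARS2 stood at 36.4 and 36.5 with vehicle against 15.8 and 19.4, and fell by 1.02 (SE 0.18, adjusted p = 0.011). AARS2 stood at 4.85 and 5.56 with vehicle against 2.41 and 2.36, and fell by 0.87 (SE 0.24, adjusted p = 0.0455). The groups of both genes were apart, but neither call held without either chetomin library, nor did that of MARS2, and AARS2 also lost its call without vehicle replicate 2 and on the scale of the authors' CPM. Of all genes 8.71% were called lower and 7.02% higher, against 4 of 37 members lower and 0 higher. Without vehicle replicate 1 the count was 7 lower, and without vehicle replicate 2 it was 3 lower and 3 higher. The share of all genes called in those fits is not given here, so their counts are not read as a result about the members. None of the 20 cytosolic genes was called by limma with either compound at 5 h. At an unadjusted limma p under 0.05 there were 4 with chaetocin and 3 with chetomin. Over all genes there were 3908 of 14217 and 4451 of 14219.

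**Figure D1:**
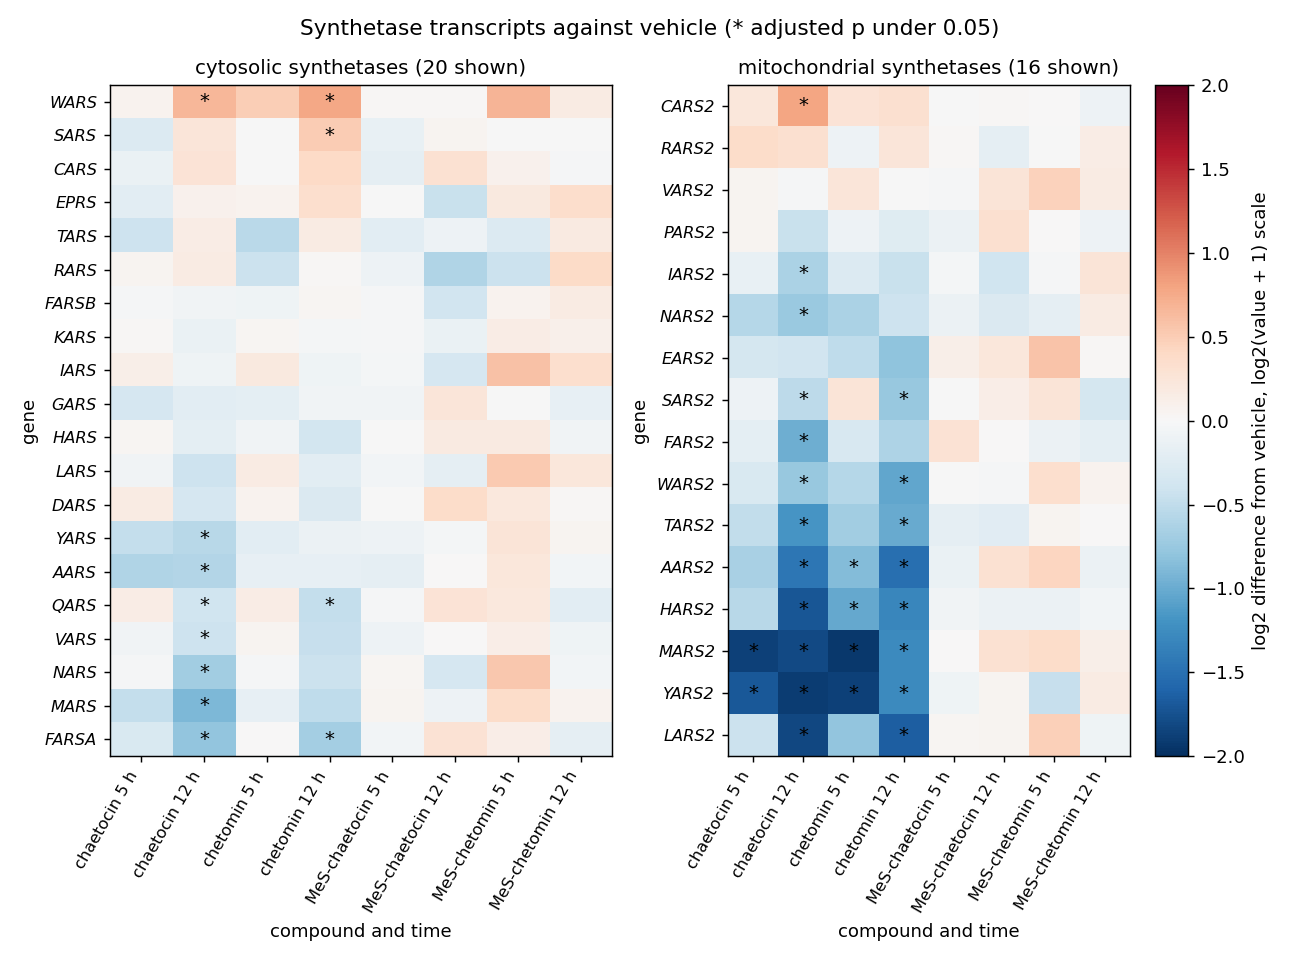
Log2 difference of 36 of the 37 synthetase genes from vehicle (colour, log2(value + 1) scale) for 4 compounds at 5 h and 12 h; rows are genes, columns are comparisons of 2 against 2 libraries, and a star marks an adjusted p under 0.05. In the mitochondrial panel the stars of chaetocin and chetomin gather in the lower rows, apart from that of CARS2 with chaetocin at 12 h. The cytosolic panel holds stars at 12 h only, 7 lower and 1 higher with chaetocin and 2 lower and 2 higher with chetomin. The MeS columns hold none.

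At 12 h the mitochondrial set was broadly lower with both compounds. With chaetocin, 12 of the 17 mitochondrial genes fell, 1 (CARS2, cysteinyl) rose and 4 were not called, where 26.8% of all genes were called lower and 20.2% higher. The median of the 17 log2 differences was -0.76, against -0.16 over all genes tested. With chetomin, 8 fell and 9 were not called, where 20.2% of all genes were called lower and 15.6% higher, and the median was -0.75 against -0.15. Leaving MARS2 and YARS2 out gave medians of -0.74 and -0.71.

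LARS2, mitochondrial leucyl-tRNA synthetase, stood at 22.1 and 20.7 with vehicle, at 5.26 and 5.45 with chaetocin and at 6.81 and 5.53 with chetomin. It fell by 1.82 with chaetocin (SE 0.18, adjusted p = 0.000957) and by 1.65 with chetomin (SE 0.22, adjusted p = 0.00145). Every treated library lay far below both vehicle libraries.

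YARS2 stood at 23.8 and 22.1 with vehicle, at 5.76 and 5.02 with chaetocin and at 8.62 and 9.13 with chetomin. Its log2 differences were -1.91 (SE 0.19, adjusted p = 0.000905) and -1.28 (SE 0.20, adjusted p = 0.00298). The chetomin libraries lay between the chaetocin and the vehicle libraries, and the vehicle level itself was lower than at 5 h.

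MARS2 stood at 10.3 and 8.18 with vehicle, at 1.74 and 2.08 with chaetocin and at 3.22 in both chetomin libraries. The log2 differences were -1.81 (SE 0.23, adjusted p = 0.00176) with chaetocin and -1.27 (SE 0.25, adjusted p = 0.00662) with chetomin. It was low in all 4 treated libraries.

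HARS2 stood at 36.0 and 35.4 with vehicle, at 9.78 and 10.7 with chaetocin and at 14.1 and 13.7 with chetomin. Its log2 differences were -1.71 (SE 0.16, adjusted p = 0.000802) and -1.2985 (SE 0.18, adjusted p = 0.00174). Its replicates were close in every group.

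AARS2 stood at 6.92 and 7.61 with vehicle, at 2.11 and 1.95 with chaetocin and at 2.11 and 1.73 with chetomin. Its log2 differences were -1.45 (SE 0.21, adjusted p = 0.00279) and -1.503 (SE 0.24, adjusted p = 0.00298). All 4 treated libraries lay below the vehicle libraries.

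The other mitochondrial genes called lower by limma with both compounds were TARS2 (threonyl), WARS2 and SARS2 (seryl), with log2 differences from -0.52 to -1.18. FARS2 (phenylalanyl), NARS2 (asparaginyl) and IARS2 were called with chaetocin and not with chetomin, at -0.64 to -0.97; no member passed the test of chaetocin against chetomin. EARS2 (glutamyl), PARS2 (prolyl), RARS2 (arginyl) and VARS2 (valyl) were called by limma with neither compound. The authors' deposited table, made with its own test, differed for some of these genes. There SARS2 stood at -0.01 and -0.19 at 12 h (q = 0.964 and 0.36), chaetocin first. With chetomin at 5 h SARS2 was higher there, at 0.845 (q = 0.00012). WARS2 with chaetocin was not called there at 12 h (q = 0.0777). RARS2 was higher there at 12 h, at 0.79 and 0.65 (q = 0.000157 and 0.00271). EARS2 was lower there with chetomin at 12 h, at -0.58 (q = 0.00169).

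CARS2 went the other way. It stood at 34.3 and 33.6 with vehicle, at 63.1 and 56.0 with chaetocin and at 41.2 and 43.6 with chetomin. It rose by 0.79 with chaetocin (SE 0.14, adjusted p = 0.0061), and with chetomin the difference of 0.31 was not called (adjusted p = 0.173), although both chetomin libraries lay above both vehicle libraries; it was called on both other scales described below. The call with chaetocin was lost without either chaetocin library.

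**Figure D2:**
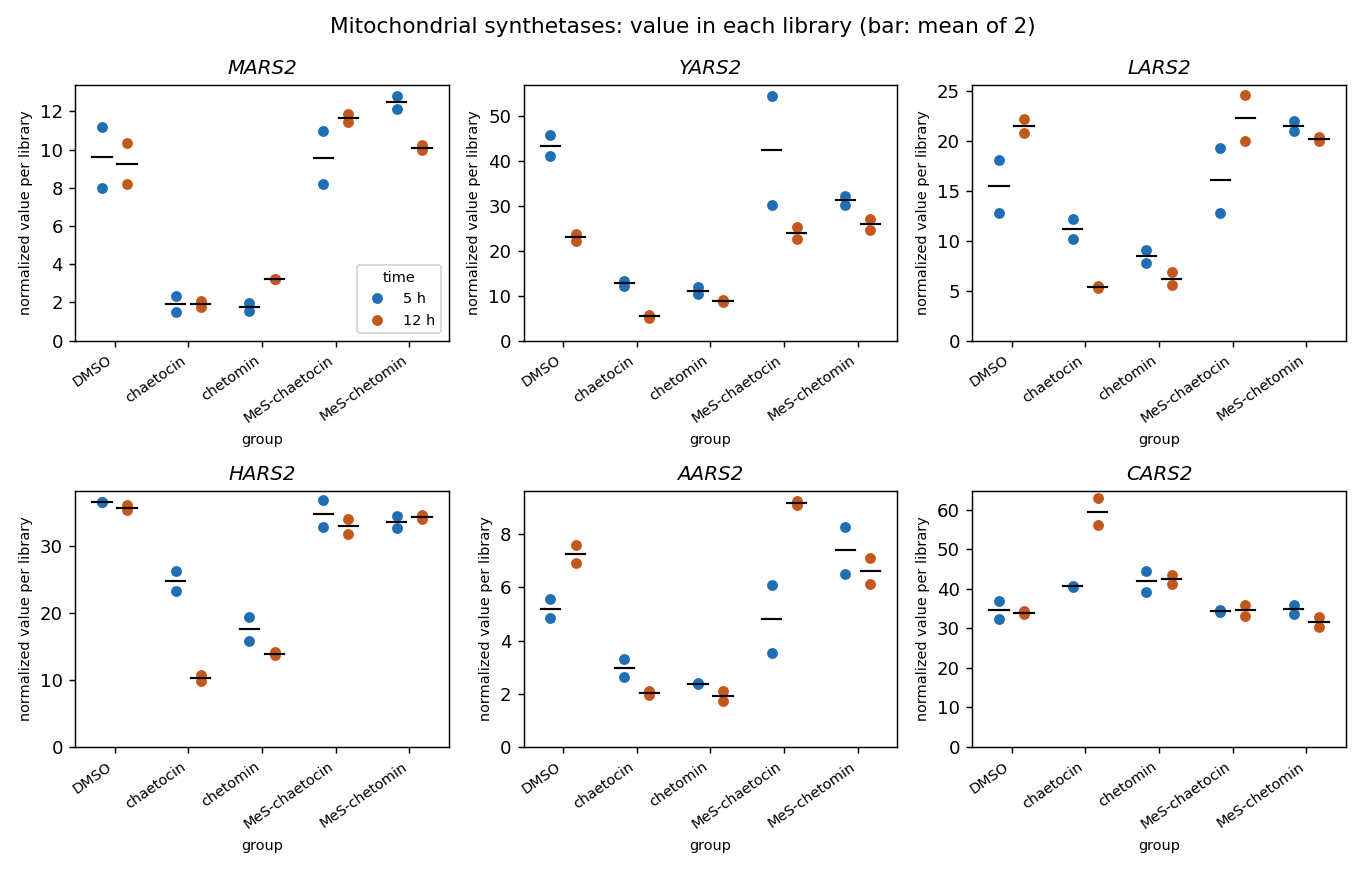
Normalized value in each library (y axis, linear from 0) of 6 mitochondrial synthetase genes in 5 groups at 5 h (blue) and 12 h (orange); points are libraries and bars the mean of 2. MARS2 and YARS2 are low with chaetocin and chetomin at both times, LARS2 reaches 5.26 to 6.81 at 12 h, and CARS2 is high with chaetocin at 12 h.

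These counts rest on both treated libraries of a group. Without chaetocin replicate 1 or 2 at 12 h, 2 or 1 of the 37 members remained called lower and 168 or 196 of all genes, in place of 4128; the mitochondrial median was then -0.83 or -0.77. Without chetomin replicate 1 or 2, none of the 37 was called by limma, and the median was -0.81 or -0.70. A group of 1 library is assumed there to vary like the vehicle.

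The cytosolic genes did not move as a set, and their direction at 12 h depends on how libraries are scaled. On the deposited values 7 of the 20 fell with chaetocin (AARS, FARSA, MARS, NARS, QARS, VARS and YARS) and 1 rose (WARS), with a median log2 difference of -0.20 against -0.16 over all genes. With chetomin 2 fell (FARSA and QARS) and 2 rose (SARS and WARS), with a median of -0.10 against -0.15. On the scale of the authors' CPM, which raises the median of all genes by 0.29 and 0.25, the cytosolic counts were 4 higher and 0 lower with chaetocin, where 28.4% of all genes were higher and 13.9% lower. With chetomin they were 3 higher and 0 lower, where 22.7% of all genes were higher and 9.09% lower. With median-of-ratios scaling they were 3 higher and 1 lower with chaetocin (25.2% and 17.4% of all genes), and 3 higher and 0 lower with chetomin (19.9% and 12.3%). The cytosolic shares called higher were thus below those of all genes on both scales. The mitochondrial counts, to be read against the same shares, were 7 to 9 lower and 1 higher with chaetocin and 6 or 7 lower and 1 higher with chetomin, with medians of -0.45 to -0.59. Beside the median of all genes on the same scale, the cytosolic median differed by -0.04 to 0.12 and the mitochondrial median by -0.64 to -0.55, over both compounds and all 3 scales.

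WARS, cytosolic tryptophanyl-tRNA synthetase, rose with both compounds on all 3 scales. It stood at 135.0 and 112.0 with vehicle at 12 h, at 187.1 and 202.5 with chaetocin and at 219.7 and 201.0 with chetomin. The log2 differences were 0.66 (SE 0.14, adjusted p = 0.0119) and 0.77 (SE 0.16, adjusted p = 0.00936). Both calls of WARS at 12 h were lost without either treated library of their comparison. At 5 h the vehicle libraries of WARS were spread wide, at 71.9 and 108.6.

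SARS, cytosolic seryl-tRNA synthetase, stood at 129.1 and 129.6 with vehicle, at 162.2 and 145.3 with chaetocin and at 182.4 and 186.0 with chetomin. It rose with chetomin by 0.51 (SE 0.15, adjusted p = 0.0298), and the difference of 0.25 with chaetocin was called only on the 2 other scales and where all libraries share the spread.

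MARS, cytosolic methionyl-tRNA synthetase, stood at 262.1 and 186.5 with vehicle, at 143.7 and 96.3 with chaetocin and at 189.4 and 127.3 with chetomin. It fell with chaetocin by 0.90 (SE 0.24, adjusted p = 0.0235), a call lost on both other scales and without vehicle replicate 1. The exons of MARS overlap those of DDIT3 on the other strand, whose own value rose from 13.1 and 12.9 to 158.7 and 150.3. No source used here gives the strand setting of the counting, so the values of MARS are uncertain. The same limit holds for other members whose exons overlap a gene on the other strand. Among them are CARS2 (with ING1), WARS (WDR25), AARS2 (TMEM151B), SARS2 (MRPS12), FARSA (FARSA-AS1) and KARS (TERF2IP). The values of those overlapping genes are not given here.

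FARSA, the other subunit of phenylalanyl-tRNA synthetase, stood at 125.9 and 164.4 with vehicle, at 84.9 and 80.8 with chaetocin and at 93.5 and 85.4 with chetomin. It fell by 0.79 (SE 0.16, adjusted p = 0.00977) and by 0.68 (SE 0.18, adjusted p = 0.0206). Both calls were lost on the scale of the authors' CPM, and the call with chetomin was also lost with median-of-ratios scaling.

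AARS (alanyl) stood at 98.8 and 112.8 with vehicle and at 73.0 and 66.4 with chaetocin, and fell by 0.59 (SE 0.14, adjusted p = 0.0153). NARS (asparaginyl) stood at 144.0 and 98.8 and then at 76.4 and 70.2, and fell by 0.70 (SE 0.20, adjusted p = 0.0287). QARS stood at 237.8 and 248.7 with vehicle, at 188.4 and 181.5 with chaetocin and at 176.5 and 174.4 with chetomin, with differences of -0.39 (SE 0.12, adjusted p = 0.0353) and -0.47 (SE 0.15, adjusted p = 0.0389). In the comparisons called here the treated and vehicle libraries did not overlap, yet all of these calls were lost on both other scales.

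The genes for both compartments were not called by limma in any comparison with vehicle. Without vehicle replicate 1 at 12 h, GARS was called lower with chaetocin, at -0.42. In the authors' deposited table GARS was higher at 12 h with both compounds, at 0.35 and 0.45 (q = 0.0122 and 0.00116), chaetocin first. KARS was higher there with chetomin, at 0.32 (q = 0.0234), and stood at 0.27 with chaetocin (q = 0.0555). GARS, glycyl-tRNA synthetase, stood at 116.7 and 157.5 with vehicle, 122.3 and 112.7 with chaetocin and 126.1 and 131.2 with chetomin at 12 h. KARS, lysyl-tRNA synthetase, stood at 161.2 and 138.7, then 137.9 and 135.9, then 145.9 and 146.0. Their log2 differences at 12 h were -0.21 and -0.08 for GARS and -0.13 and -0.03 for KARS, chaetocin first.

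**Figure D3:**
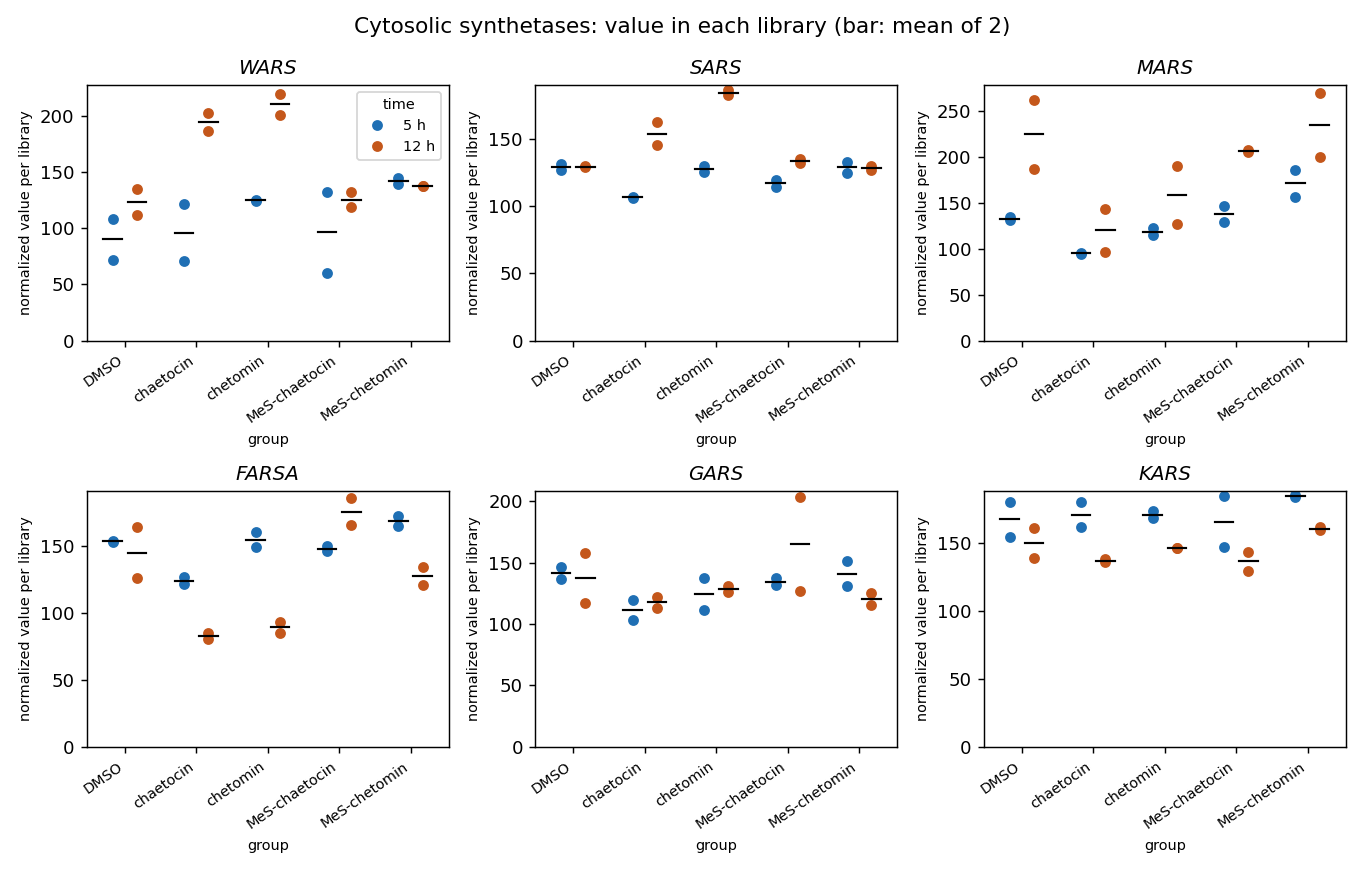
Normalized value in each library (y axis, linear from 0) of 6 cytosolic synthetase genes in 5 groups at 5 h (blue) and 12 h (orange); points are libraries and bars the mean of 2. WARS at 12 h reaches 187.1 to 219.7 with chaetocin and chetomin against 112.0 and 135.0 with vehicle, FARSA is lower in those groups, and at 12 h the chaetocin and chetomin libraries of GARS and KARS overlap those of vehicle or lie close to them.

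The authors' deposited table, made with its own test, gave more cytosolic genes higher. At its q under 0.05 it held 9 cytosolic genes higher and 1 lower with chaetocin at 12 h, and 11 higher and 0 lower with chetomin. Of all genes in the authors' deposited table, 35.1% were higher and 25.2% lower with chaetocin, and 31.7% were higher and 21.7% lower with chetomin. For the mitochondrial genes the authors' deposited table held 2 higher (CARS2 and RARS2) and 9 lower with chaetocin, and 1 higher (RARS2) and 9 lower with chetomin. Its log2 fold changes at 12 h were 1.07 and 1.201 for WARS, -0.19 and 0.12 for MARS and 0.35 and 0.45 for GARS, chaetocin first. In the authors' deposited table LARS2 had -1.63 and -1.41 and MARS2 -1.88 and -1.17. At 5 h the authors' deposited table held 2 mitochondrial genes lower and 1 higher (RARS2) with chaetocin, where 14.8% of all its genes were lower and 14.7% higher. It held 0 cytosolic genes lower and 0 higher there. With chetomin at 5 h the authors' deposited table held 5 mitochondrial genes lower and 1 higher (SARS2), where 14.0% were lower and 17.2% higher. Of the 20 cytosolic genes it then held 3 higher (QARS, VARS and WARS) and 0 lower.

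Within a library, where no scaling between libraries enters, the distance between the median log2(value + 1) of the cytosolic and of the mitochondrial genes was 2.73 and 2.83 with vehicle at 12 h. It was 3.54 and 3.48 with chaetocin and 3.37 and 3.14 with chetomin, both above vehicle. With MeS-chaetocin it was 3.16 and 2.91, also above vehicle and overlapping chetomin, and with MeS-chetomin 2.79 and 2.52. At 5 h it was 2.84 and 2.69 with vehicle, 2.998 and 2.86 with chaetocin and 3.19 and 3.24 with chetomin. The chetomin libraries were clear of vehicle at 5 h, and the nearer chaetocin library was only just above it. With 2 libraries against 2 no exact permutation test can give a two-sided p below 0.333, so these distances are given without one.

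**Figure D4:**
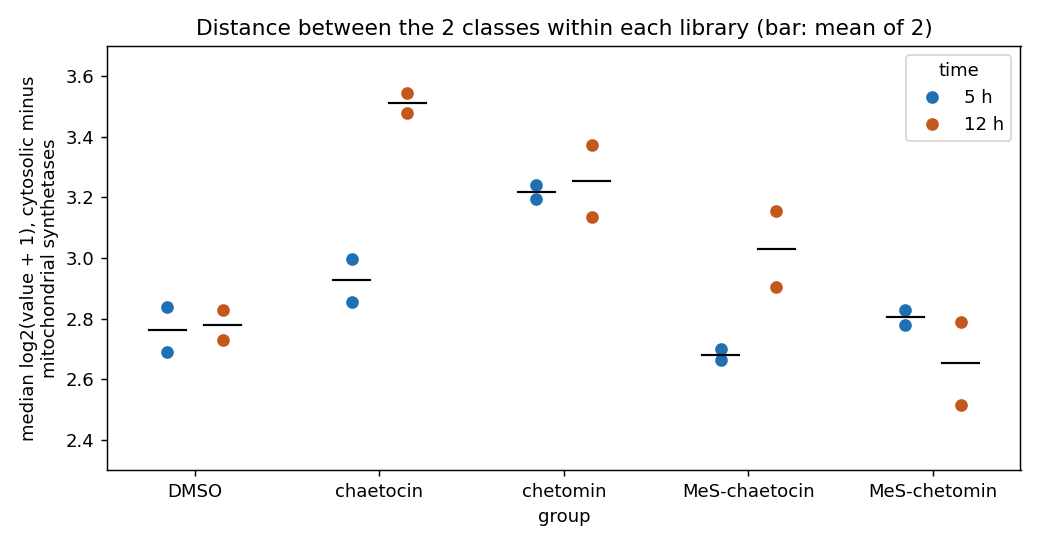
Distance within each library between the median log2(value + 1) of 20 cytosolic and of 17 mitochondrial synthetase genes (y axis, from 2.3, not from 0) for 5 groups at 5 h (blue) and 12 h (orange); points are libraries and bars the mean of 2. Chaetocin at 12 h is highest at 3.54 and 3.48, and MeS-chaetocin at 12 h also lies above vehicle.

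For 14 amino acids both a cytosolic and a mitochondrial gene were listed. The log2 difference from vehicle was lower for the mitochondrial gene in 10 of 14 pairs with chaetocin at 5 h, 10 with chetomin at 5 h, and 11 with either at 12 h. The median of mitochondrial minus cytosolic was -0.30, -0.58, -0.81 and -0.85 in that order. With the MeS analogs the counts were 6 and 8 of 14 at 5 h and again 6 and 8 at 12 h, with medians from -0.07 to 0.06. The comparisons of a time share their vehicle libraries. At 12 h the pairs that went the other way with both compounds were those for arginine and valine, joined by cysteine with chaetocin and by asparagine with chetomin.

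**Figure D5:**
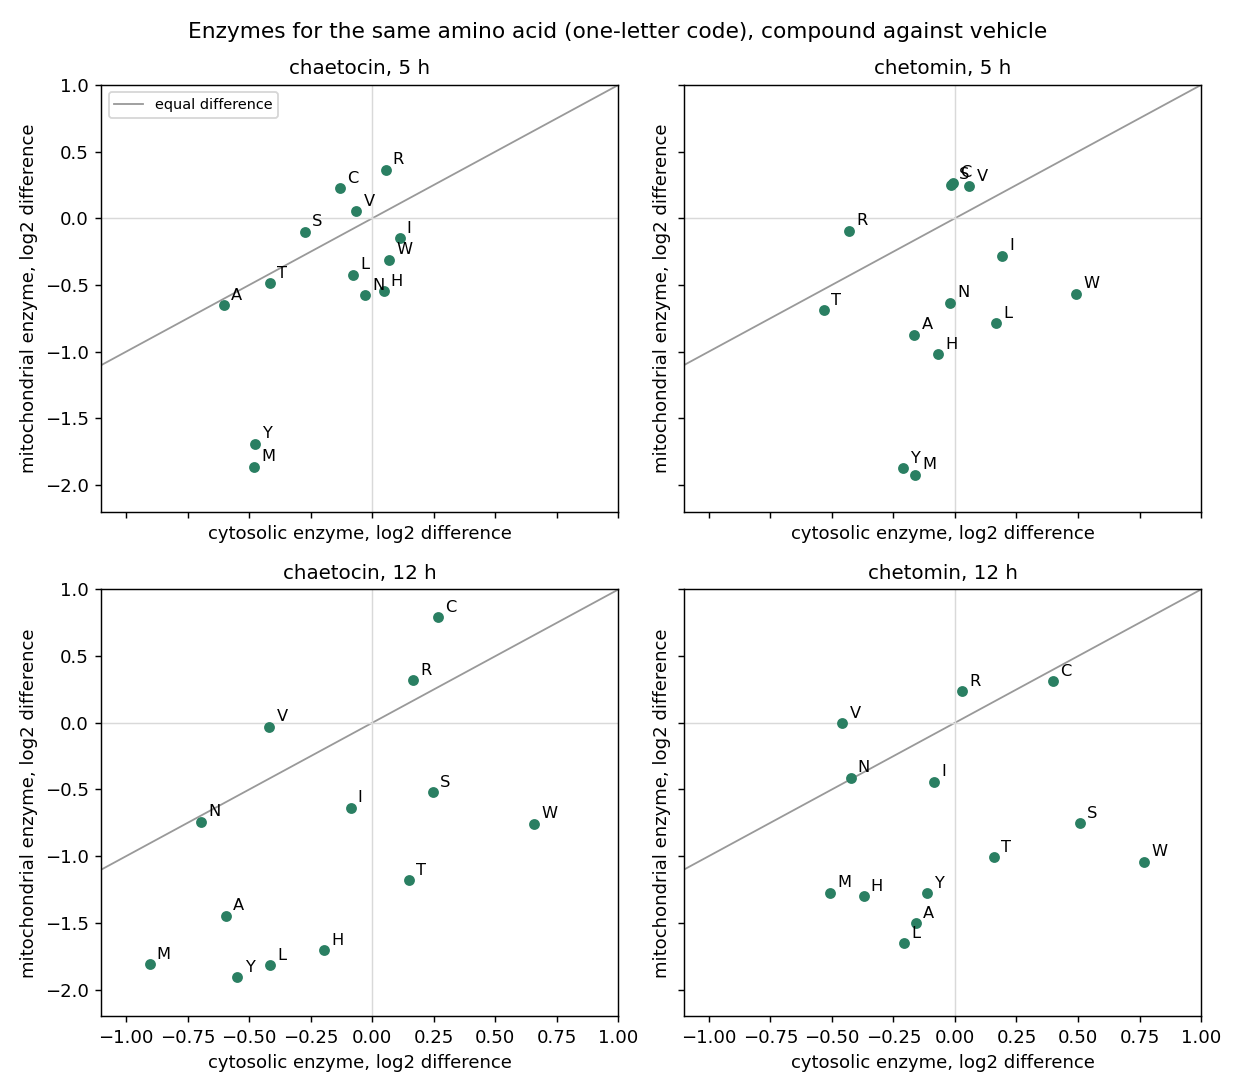
Log2 difference from vehicle of the cytosolic gene (x axis) and of the mitochondrial gene (y axis) for 13 of the 14 amino acids, given by one-letter code, with chaetocin and chetomin at 5 h and 12 h; the grey line marks equal differences. Points below the line have the lower mitochondrial value, 9 of the 13 shown in each panel at 5 h and 10 of 13 in each at 12 h.

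The MeS analogs left all 37 members uncalled against vehicle. Of all genes, 0.0% were called with MeS-chaetocin at 5 h and 0.0% at 12 h, and 0.141% with MeS-chetomin at 5 h and 0.0% at 12 h. At an unadjusted limma p under 0.05 there were 0 and 1 members with MeS-chaetocin and 6 and 0 with MeS-chetomin, at 5 h and 12 h. Over all genes these were 105 of 14178 and 756 of 15215, then 2290 of 14184 and 416 of 15197, in the same order. Without vehicle replicate 2, some members were called higher with MeS-chetomin at 5 h, and the share of all genes called there is not given. MARS2 stood at 8.19 and 10.98 with MeS-chaetocin at 5 h, and its log2 difference was 0.00 (95% interval -0.82 to 0.82). YARS2 stood at 54.4 and 30.2 there, a wide spread, with a difference of -0.09 (95% interval -0.88 to 0.70). At 12 h LARS2 with MeS-chaetocin stood at 19.97 and 24.6, with a difference of 0.05 (95% interval -0.39 to 0.48). Intervals of this width do not show that an analog acts like vehicle.

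Each parent compound was also set directly against its analog at the same concentration and time. Chaetocin against MeS-chaetocin at 5 h had MARS2 at -1.86 (adjusted p = 0.0222) and YARS2 at -1.60 (adjusted p = 0.0283) as its 2 called members, both lower, where 3.45% of all genes were lower and 3.11% higher. Both calls were lost without either vehicle library or either chaetocin library, and 1 was lost without MeS-chaetocin replicate 2. At 12 h 20 members were lower and 3 higher (CARS2, RARS and WARS), where 31.6% of all genes were lower and 22.2% higher; of the 20, 12 were mitochondrial. MARS2 had the largest difference at -2.12 (SE 0.20, adjusted p = 0.00025).

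Chetomin against MeS-chetomin at 5 h gave 10 members lower and 0 higher, 8 of them mitochondrial, where 23.9% of all genes were lower and 8.97% higher. At 12 h 13 were lower and 4 higher (CARS, CARS2, SARS and WARS), where 28.6% of all genes were lower and 18.8% higher; 11 of the 13 were mitochondrial. The differences of MARS2 were -2.29 (SE 0.22, adjusted p = 0.000539) at 5 h and -1.40 (SE 0.19, adjusted p = 0.00164) at 12 h. Without any 1 library these counts of called members ran from 4 to 16 at 5 h and from 7 to 24 at 12 h, and for chaetocin at 12 h from 11 to 29.

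Chaetocin and chetomin, which differ in the groups around a shared epidithiodiketopiperazine core, were not told apart by any member. None of the 37 passed the test in limma at 5 h, where 0.767% of all genes were called, or at 12 h, where 4.67% were. At an unadjusted limma p under 0.05 there were 6 members at each time, against 1791 of 14220 and 3235 of 15381 genes. The widest difference at 12 h was YARS2, lower with chaetocin by a log2 difference of -0.63 (95% interval -1.04 to -0.22, adjusted p = 0.0868). For AARS2 it was 0.06 (95% interval -0.40 to 0.51). Without either vehicle library at 12 h some members were called, and the share of all genes called there is not given. Between the MeS analogs 0 members were called by limma at either time, where 0.0% of all genes were called at 5 h and 0.00656% at 12 h. An unadjusted limma p under 0.05 was found for 0 members at 5 h and 11 at 12 h, against 554 of 14195 and 4145 of 15251 genes. Some members were called at 12 h without either vehicle library.

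The effect of chaetocin grew between 5 h and 12 h for 2 mitochondrial genes. For LARS2 the effect at 12 h minus that at 5 h was -1.40 (SE 0.31, adjusted p = 0.0347), and for HARS2 it was -1.16 (SE 0.23, adjusted p = 0.023), where 4.32% of all genes were called. At 5 h LARS2 stood at 12.8 and 18.0 with vehicle and at 12.2 and 10.1 with chaetocin. HARS2 stood at 23.2 and 26.2 with chaetocin at 5 h, between its vehicle level and its level at 12 h. Both calls were lost without any 1 of the 8 libraries other than vehicle replicate 2 at 5 h. For MARS2 the change between times was 0.05 (95% interval -0.76 to 0.86) and for YARS2 -0.22 (95% interval -0.79 to 0.35). For chetomin 0 members were called by limma, where 0.497% of all genes were called. At an unadjusted limma p under 0.05 there were 8 members, against 2888 of 14072 genes.

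HARS2 needs a further limit. HARS and HARS2 lie head to head on chromosome 5, with gene starts 436 bases apart and exons that overlap on opposite strands, and HARS2 also overlaps ZMAT2 on its own strand. Within each library, HARS minus HARS2 on the log2(value + 1) scale was 1.34 and 1.53 with vehicle at 12 h, 3.01 and 2.88 with chaetocin and 2.40 and 2.32 with chetomin. With MeS-chaetocin at 12 h it was 1.83 and 1.61, also above vehicle, and with MeS-chetomin 1.46 and 1.36. At 5 h it was 1.37 and 1.53 with vehicle, 2.15 and 1.94 with chaetocin and 2.54 and 2.26 with chetomin, and MeS-chetomin, at 1.71 and 1.80, was above vehicle there too. The distance was wider than with vehicle in every chaetocin and chetomin library, and wider than with either analog at the same time. HARS, cytosolic histidyl-tRNA synthetase, was not called against vehicle.

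Several ATF4 pathway genes outside the synthetases rose with both compounds at 12 h. DDIT3, a transcription factor induced by the integrated stress response, stood at 13.1 and 12.9 with vehicle at 12 h, 158.7 and 150.3 with chaetocin and 175.0 and 190.6 with chetomin. It rose by 3.47 (SE 0.14, adjusted p = 0.000197) and 3.71 (SE 0.16, adjusted p = 1.9e-05). Of 16 tested ATF4 targets outside the family, 11 rose and 0 fell with chetomin at 12 h, and 7 rose and 2 fell with chaetocin, with median log2 differences of 1.03 and 0.43 against -0.15 and -0.16 over all genes. Of all genes 15.6% were higher and 20.2% lower with chetomin, and 20.2% higher and 26.8% lower with chaetocin. TRIB3, a pseudokinase, rose by 3.21 with chetomin and by 2.28 with chaetocin, and ASNS, asparagine synthetase, rose by 1.22 with chetomin while its difference with chaetocin was -0.07 (adjusted p = 0.763). At 5 h the list had 6 higher and 0 lower with chetomin, where 7.02% of all genes were higher and 8.71% lower. With chaetocin at 5 h it had 0 higher and 2 lower, where 4.56% of all genes were higher and 6.53% lower. ATF4 mRNA itself fell with chaetocin at 5 h by 1.196 (SE 0.17, limma adjusted p = 0.0108). Those 2 (CHAC1 and DDIT4) and ATF4 lost their calls without either chaetocin library at 5 h, and ASNS lost its call with chetomin without either chetomin library at 12 h. CHAC1, DDIT4 and SESN2 lost their calls at 12 h with each compound without either library of that compound. With chetomin at 5 h, CHAC1 and SESN2 lost their calls without either chetomin library. Of the 12 cytosolic synthetases known as ATF4 targets, 1 rose and 4 fell with chaetocin at 12 h, where 20.2% of all genes were higher and 26.8% lower, and the 4 lower calls were lost on the scale of the authors' CPM. With chetomin 2 of the 12 rose and 0 fell, where 15.6% of all genes were higher and 20.2% lower. The authors' deposited table differed. At its q under 0.05, CARS, EPRS, GARS, IARS, SARS, TARS and WARS were higher with both compounds at 12 h, and YARS with chetomin. No gene of the 12 was lower there. Of all genes in that table, 35.1% were higher with chaetocin and 31.7% with chetomin.

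On the deposited scale, members with the CARE form shown above did not share a direction with either compound at 12 h. At 12 h the chaetocin differences were -0.90 for MARS, -0.70 for NARS and -0.59 for AARS, all called on the deposited scale, and 0.27 for CARS, 0.15 for TARS and -0.09 for IARS, none called. The calls of MARS, NARS and AARS were lost on both other scales. In the authors' deposited table all of these members were positive with chetomin at 12 h, from 0.12 to 0.69. There CARS, IARS and TARS were higher at q under 0.05 with both compounds, and AARS, MARS and NARS were called with neither. The promoter windows read for WARS, which rose with both compounds, and for SARS, which rose with chetomin, held no CARE letters.

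MYC, a transcription factor, stood at 198.3 and 219.8 with vehicle at 5 h, at 23.8 and 22.4 with chaetocin and at 39.8 and 38.2 with chetomin. It fell by 3.12 (SE 0.15, adjusted p = 0.000855) and by 2.39 (SE 0.15, adjusted p = 0.000231), and at 12 h by 1.77 and 1.84. MYC is given because it stood on the list of regulators; its relation to the synthetases was not tested.

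Of 9 mitochondrial translation factors, 2 rose and 2 fell with each compound at 12 h, close to the shares over all genes (20.2% higher and 26.8% lower with chaetocin, 15.6% and 20.2% with chetomin). TSFM, the exchange factor for mitochondrial EF-Tu, stood at 65.9 and 65.2 with vehicle, 27.6 and 27.9 with chaetocin and 28.7 and 32.4 with chetomin, and fell by 1.21 (SE 0.14, adjusted p = 0.00128) and by 1.08 (SE 0.17, adjusted p = 0.0026). GFM1, a mitochondrial elongation factor, fell by 1.08 and 1.09, and MTRF1, a release factor, rose by 1.24 and 0.97. Among 17 other genes of tRNA charging and processing, 4 fell with chaetocin and 2 with chetomin at 12 h, no more than the share over all genes; ELAC2 (which trims tRNA 3′ ends) fell by 1.07 and 1.17, and XPOT, the tRNA exporter, rose by 1.11 with chetomin. TRMT10C, a subunit of mitochondrial RNase P, fell at 5 h by 0.85 with chaetocin and by 1.73 with chetomin. The TRMT10C call with chaetocin was lost on both other scales and without either chaetocin library. At 12 h the calls of TSFM, GFM1, MTRF1 and ELAC2 were lost without either treated library of their comparison, as was that of XPOT with chetomin.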

How the data were processed

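The submitters' processing notes name STAR 2.5.2b, RSEM 1.3.3, edgeR (without a version) and the build GRCh38; no source used here gives the strand setting. Per the file headers, each deposited table holds 1 normalized signal per library, which the headers name neither TPM nor FPKM, and the authors' mean CPM per group (signal), log2 fold change and p-value with its q-value. Read depth per library is not given in the values used.

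The values are not counts, so differences of log2(value + 1) were tested with limma 3.58.1 (R 4.3.3), with a variance trend, two-sided, with Benjamini-Hochberg adjustment over all genes tested, in place of the count model first planned: 4 libraries for each of 8 comparisons with vehicle, 6 for each of 8 direct comparisons, 8 for each of 2 comparisons of times. A log2(value + 1) difference understates the change of low genes. The labels do not say whether replicates came from separate cultures, so p-values measure the spread between these libraries. No value column was left unmapped and no libraries were identical.

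The members and gene lists were chosen with earlier results of these data known. Named members are the called ones with the largest differences, up to 4 cytosolic and 3 mitochondrial each way per comparison of chaetocin or chetomin with vehicle, with GARS and KARS; others are named to account for the members, except 1 gene that enters the counts and medians and is not reported here by itself. Positions come from GENCODE 29 (GRCh38), promoters from RefSeq. Alternatives were the authors' CPM scale (1 factor per group), median-of-ratios factors, a pseudocount of 0.1, a mean value of at least 1, a spread shared by all libraries, a replicate block and leaving out each library. The fit was checked on simulated data.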

Additional observations from a re-analysis of the deposited data

Results flagged for a closer look

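The effect of chaetocin against vehicle differed between 12 h and 5 h for 2 mitochondrial synthetase genes, by a test of the interaction of compound and time over 8 libraries in limma. For HARS2 the log2 difference of effects was -1.16 (adjusted p = 0.023), with both chaetocin libraries below both vehicle libraries at each time. For LARS2 it was -1.40 (adjusted p = 0.0347), likewise with both chaetocin libraries below both vehicle libraries at each time. Over all genes 4.32% were called by this test. Both calls held on the scale of the authors' CPM and with median-of-ratios scaling, and both were lost with the replicate block. Both were also lost when any library other than vehicle replicate 2 at 5 h was left out.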

How the results depend on the processing

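Counts of called members moved most when libraries were left out. The counts over all genes can move in the same fits, and they are not set beside every count here. These counts alone do not show whether members moved more than all genes. Leaving out each library gave 1 to 3 members with chaetocin and 1 to 7 with chetomin at 5 h, 1 to 25 and 0 to 16 at 12 h, and 0 to 3 with MeS-chetomin at 5 h. It gave 0 to 2 and 11 to 29 for chaetocin against MeS-chaetocin at 5 h and 12 h, 4 to 16 and 7 to 24 for chetomin against MeS-chetomin, 0 to 3 for chaetocin against chetomin at 12 h, 0 to 9 between the analogs at 12 h, and 0 to 2 and 0 to 1 for the change between times with chaetocin and chetomin. With a spread shared by all libraries, the counts were 4 for chaetocin at 5 h, 19 for chetomin at 12 h, 5 for chaetocin against chetomin at 12 h, and 4 and 3 for the changes between times. The authors' CPM scale gave 12 for chaetocin at 12 h, and median-of-ratios scaling gave 1 for chaetocin against MeS-chaetocin at 5 h. No named gene called on the deposited scale was called in the other direction under these alternatives, while the split of the cytosolic calls at 12 h turned with the scaling (7 lower and 1 higher against 0 lower and 4 higher with chaetocin); the causes were not tested.

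The replicate numbers are shared between groups only as numbers: deviations of same-numbered libraries correlated from -0.6 to 0.69 at 5 h and from -0.34 to 0.14 at 12 h, above 0.1 in 3 and 2 of 10 pairs of groups. With the replicate block, 2 members were called higher with MeS-chetomin at 5 h and 0 for the change with chaetocin between times; 6 were called with chetomin at 5 h, and 18 and 14 with chaetocin and chetomin at 12 h.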

Other observations

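By enzyme class, of the 19 class I synthetases 9 fell and 2 rose with chaetocin at 12 h, and 5 fell and 1 rose with chetomin. Of the 18 class II synthetases 10 fell and 0 rose, and 5 fell and 1 rose; over all genes 26.8% were lower and 20.2% higher with chaetocin, and 20.2% lower and 15.6% higher with chetomin. The difference between the classes was not tested. Of the 8 enzymes of the multisynthetase complex, 2 (MARS and QARS) fell with chaetocin and 1 (QARS) with chetomin on the deposited scale, and those calls were lost on the scale of the authors' CPM; 2 of 8 and 1 of 8 are no larger shares than those over all genes. Of its 3 scaffold genes, AIMP2 fell by 0.56 with chaetocin (limma adjusted p = 0.0198) and AIMP1 rose by 0.58 with chetomin (limma adjusted p = 0.0419). The AIMP2 call was lost on the scale of the authors' CPM, with median-of-ratios scaling, with the replicate block and without either chaetocin library; the AIMP1 call was lost without either chetomin library and without vehicle replicate 2. The list of 7 cytosolic elongation factor genes also holds VARS, a member counted above, and EEF1E1, one of the scaffold genes. Of the 7, EEF1G rose with chaetocin at 12 h by 0.43 (limma adjusted p = 0.0463), and VARS was the 1 that fell. The EEF1G call was lost with the replicate block, without either chaetocin library and without vehicle replicate 1. By limma 0 were called with chetomin. At an unadjusted limma p under 0.05 there were 3 of the 7 with chetomin, against 7359 of 15381 genes over all.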
